A study of Caenorhabditis elegans with 2 samples.

Results

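The apical extracellular matrix genes noah-1, noah-2, fbn-1, let-653, let-4, sym-1, egg-6, lpr-1, lpr-3 and dex-1 were described for binding of the GATA factor ELT-1 in larvae of the nematode Caenorhabditis elegans. These 10 genes, of 19973 protein-coding genes on the 6 nuclear chromosomes, were chosen by name. Their regions were all those of the authors' pooled ranked list whose summit lay between 3 kb upstream of the gene and its end. The rule gave 50 regions of 30000, and no region fell to more than 1 of the 10 genes. Chromatin immunoprecipitation and sequencing (ChIP-seq) had been done on 2 biological replicates of whole L2 larvae of both sexes, which form the only group. Both replicates came from strain OP354, which carries the mutation unc-119(tm4063) III and the insertion wgIs354 targeting elt-1. The immunoprecipitated protein is named eGFP-elt-1, a fusion to green fluorescent protein, while the antibody field names elt-1. Which promoter drives the fusion, and in which strain the control was made, is not given in the sources used here. The chromatin of all tissues was pooled in each library.

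Epithelial cells of the worm cover their outer, apical face with a matrix. In the epidermis a temporary precuticle is laid down before each cuticle is made, and it shapes and lines narrow tubes such as the excretory duct. Its proteins fall into families. Zona pellucida (ZP) domain proteins polymerise into fibrils, proteins with extracellular leucine-rich repeats act at the cell surface or in the matrix, and lipocalin-related proteins belong to a family known for carrying lipids. ELT-1 is needed in the embryo to specify the epidermis that makes this matrix, and GATA factors bind short DNA sites built around the letters GATA.

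Of the 10 genes, 5 had a region in the authors' thresholded list, called a peak here, and each of the 5 had a single peak. Over all 19973 genes 1.74% had a peak in the same window. That share was 2.26% among the 7965 genes with windows of 5393 to 18693 bp, the range of the 10. It was 4.52% among the 5551 genes with 3 to 12 ranked regions, again the range of the 10. Neither set was matched gene by gene. The genes with a peak were let-4, noah-1, let-653, lpr-3 and sym-1, in order of signal, and those without were noah-2, fbn-1, dex-1, egg-6 and lpr-1. Of the first 351 regions of replicate 1 alone, some lay in the windows of 4 of the 10 genes and of 1.77% of all genes, and of replicate 2 alone in those of 5 and of 1.94%. By region, 5 of the 50 were peaks, against 1.17% of all ranked regions. The signal printed below is the authors' value for a region, and it has its own scale in each list. A fold is this signal over that of the median region of the same list, and rank 1 is the strongest of 30000. The thresholded list held ranks 1 to 351 of the pooled list. Because the genes were named with earlier results known, no test was made of these shares. Read depth is unknown from these files.

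**Figure D1:**
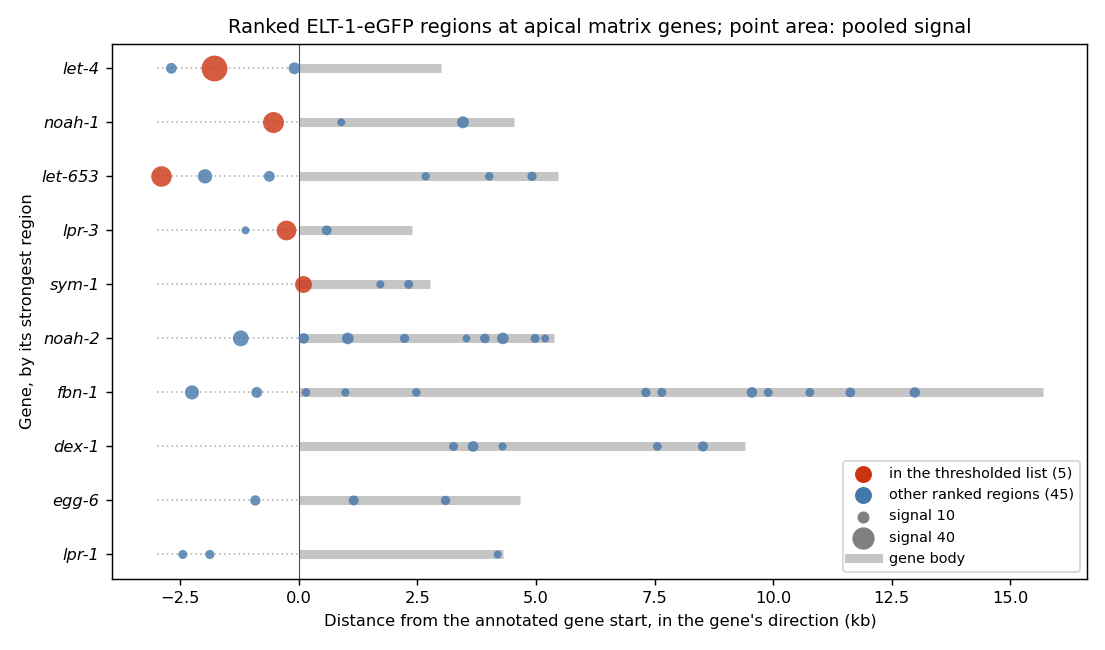
Ranked regions at the 10 genes. The horizontal axis is the distance of the summit from the annotated gene start in kb, in the direction of the gene. Each row is a gene, its grey bar is the gene body, and the area of a point is the pooled signal. The 5 red points are peaks, of which 4 lie upstream of the gene and the sym-1 peak lies 85 bp inside it.

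The DNA of 3 peaks and of the strongest region just below the threshold is shown because these hold, or lack, the sites described with each gene. All are on the plus strand of ce11, which is also the strand of each gene, read 5′ to 3′ and credited to the RefSeq WBcel235 assembly. Capitals mark GATA sites, meaning the letters GATA with A or T before them and A or G after them, on either strand, so that a site on the minus strand reads as TTATCT or the like. The core GATA lies inside each site.
let-4 (chrX:14576126-14576273, the part of the peak beyond the end of lron-1): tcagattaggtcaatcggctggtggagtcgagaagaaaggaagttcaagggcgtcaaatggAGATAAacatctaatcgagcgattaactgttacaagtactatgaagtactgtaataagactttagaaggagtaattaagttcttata
lpr-3 (chrX:11057007-11057270, whole peak): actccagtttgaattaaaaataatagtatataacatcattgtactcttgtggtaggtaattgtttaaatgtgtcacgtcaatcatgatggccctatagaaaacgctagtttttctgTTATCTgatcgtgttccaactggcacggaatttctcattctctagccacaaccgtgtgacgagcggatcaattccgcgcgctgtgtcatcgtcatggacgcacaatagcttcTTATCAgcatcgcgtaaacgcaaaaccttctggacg
let-653 (chrIV:11882563-11882826, whole peak): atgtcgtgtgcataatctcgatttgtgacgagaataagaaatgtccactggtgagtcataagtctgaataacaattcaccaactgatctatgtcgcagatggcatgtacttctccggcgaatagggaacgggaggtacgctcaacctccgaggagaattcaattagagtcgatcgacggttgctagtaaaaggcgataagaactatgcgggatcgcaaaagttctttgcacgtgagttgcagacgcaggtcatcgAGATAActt
noah-2 (chrIV:14089896-14090159, whole region, no site): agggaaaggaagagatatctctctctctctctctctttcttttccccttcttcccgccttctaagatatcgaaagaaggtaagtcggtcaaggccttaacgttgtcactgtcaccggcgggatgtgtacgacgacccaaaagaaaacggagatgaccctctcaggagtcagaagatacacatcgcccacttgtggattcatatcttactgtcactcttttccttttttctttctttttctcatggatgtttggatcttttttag

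The leucine-rich repeat genes held the strongest and the weakest of the 5 peaks by pooled signal, whereas noah-1 was the strongest in replicate 1 and the weakest in replicate 2. let-4 (WBGene00002282, chromosome X from 14577935 to 14580923, plus strand) encodes a transmembrane protein that keeps the excretory duct and pore tube intact. Its peak (14576010 to 14576273) had its summit 1793 bp upstream of the gene. The signal was 31.7 in replicate 1 and 30.5 in replicate 2, which are ranks 65 and 24, and the pooled signal of 64.0 had rank 33. It was therefore near the top of all 3 lists, with a mean fold of 6.36 ± 0.65 (SD, n = 2). A GATA site, the form AGATAA in capitals above, lay 48 bp from the pooled summit. Another ranked region lay 94 bp upstream of the let-4 start, at rank 1849 with a pooled signal of 13.4, and it held no GATA site.

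sym-1 (WBGene00006366, chromosome X from 14581622 to 14584378, plus strand) is the next gene downstream of let-4 and encodes a secreted protein of the embryonic sheath, the matrix around the elongating embryo. Its peak (14581575 to 14581838) had its summit 85 bp inside the gene, in the annotated 5′ UTR of the first exon. The signal was 11.2 in replicate 1 (rank 734) and 14.0 in replicate 2 (rank 244), with a pooled signal of 27.4 (rank 271). It lay at 2.56 ± 0.22-fold, the lowest mean of the 5, and it stood among the first 351 regions in replicate 2 but not in replicate 1. No GATA site lay in the region. The core GATA alone occurred 1 time within 50 bp of the summit. The other 2 regions of sym-1 lay in coding exons at ranks 15550 and 27693.

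The let-4 and sym-1 peaks lay within 10 kb of each other, and both lay in introns of C44H4.4 (WBGene00008094), a protein-coding gene on the minus strand that spans the whole cluster from 14568856 to 14589101. The let-4 summit was also 17 bp beyond the end of lron-1, a further leucine-rich repeat gene on the plus strand, and 75 bp upstream of the non-coding RNA gene C44H4.12. By nearest annotated start of a protein-coding gene, both peaks still fell to let-4 and sym-1. egg-6 (WBGene00010621, chromosome I from 8676666 to 8681325, minus strand), which encodes a related transmembrane protein of the duct and pore, had 3 ranked regions and no peak. Its strongest, 919 bp upstream, had a pooled signal of 10.3 at rank 5551. Replicate 1 placed this region at rank 2518 and replicate 2 held no summit within 100 bp of it.

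Among the ZP genes, noah-1 and let-653 had a peak, while the strongest regions of noah-2 and fbn-1 fell below the threshold. noah-1 (WBGene00016422, chromosome I from 5874416 to 5878958, minus strand) encodes a sheath protein that carries mechanical load during elongation. Its peak (5879363 to 5879626) had its summit 537 bp upstream of the gene, in an exon of the non-coding RNA gene C34G6.11. The signal was 38.1 in replicate 1, at rank 39, and 9.46 in replicate 2, at rank 1413, and the pooled signal was 42.1 at rank 100. The replicates thus differed widely, and the mean of 5.02 ± 4.5-fold (SD, n = 2) lay between 8.21 in replicate 1 and 1.83 in replicate 2. Of the 5 peaks this one held the most GATA sites, 4 in the region and 2 of them within 50 bp, the nearest 2 bp from the summit. The other 2 regions of noah-1 lay inside the gene, in a coding exon at rank 1690 and in an intron at rank 29368.

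let-653 (WBGene00002827, chromosome IV from 11885613 to 11891082, plus strand) encodes a mucin-like ZP protein that lines the excretory duct and the vulval lumen. Its peak had its summit 2918 bp upstream, close to the 3 kb limit of the window, and inside a coding exon of the upstream gene cutl-27 (WBGene00007802, 11878549 to 11884134, plus strand), which is itself a cuticlin-like ZP gene. The same peak therefore lies in the windows of both genes. The signal was 19.0 in replicate 1 (rank 199) and 22.7 in replicate 2 (rank 45), and the pooled signal was 40.4 (rank 111). The folds of the replicates were close, at 4.24 ± 0.22-fold, though the ranks differed. The summits were not close: that of replicate 1 lay 95 bp and that of replicate 2 lay 27 bp downstream of the pooled summit. The only GATA site of the region, near its downstream end in the sequence above, was 126 bp from the pooled summit and 31 bp from that of replicate 1. A weaker region followed 1980 bp upstream of let-653, still within cutl-27, at rank 564. Its signal was 4.80 in replicate 1 (rank 13768) and 15.6 in replicate 2 (rank 166), so it was high in replicate 2 alone. A further region 624 bp upstream had rank 3654, and the 3 regions inside let-653 had ranks from 12366 to 23760.

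noah-2 (WBGene00009926, chromosome IV from 14091254 to 14096626, plus strand), the partner of noah-1 in the sheath, had 9 ranked regions, the most per kb of the 10 genes. The strongest (14089896 to 14090159), 1226 bp upstream, had a pooled signal of 24.2 at rank 372, just under the lowest peak of the list at 24.6. Its signal was 7.47 in replicate 1 (rank 3166) and 10.2 in replicate 2 (rank 966), at 1.79 ± 0.26-fold. Neither replicate ranked it among its first 351, and the sequence above shows no GATA site. Regions in an intron 1030 bp and in an exon 4300 bp inside the gene had ranks 699 and 884 in replicate 1 and no summit within 100 bp in replicate 2.

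fbn-1 (WBGene00022816, chromosome III from 7625386 to 7641078, plus strand) encodes a fibrillin-related ZP protein that resists force in the embryonic sheath. It had 12 ranked regions, the most of any of the 10, over the longest window. The strongest (7622999 to 7623262), 2255 bp upstream, had a pooled signal of 19.2 at rank 612. Replicate 2 gave it 16.8 at rank 130, while replicate 1 had no summit within 100 bp. The next, 889 bp upstream, was high in the other replicate, with rank 897 in replicate 1 and 23625 in replicate 2. The remaining 10 regions lay inside the gene, the strongest of them at rank 4507.

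Of the lipocalin-related genes, lpr-3 had a peak and lpr-1 did not. lpr-3 (WBGene00012261, chromosome X from 11057401 to 11059793, plus strand) encodes a secreted protein that organises the precuticle. Its peak had its summit 262 bp upstream, in no annotated transcript. The signal was 17.3 in replicate 1 (rank 250) and 22.3 in replicate 2 (rank 49), and the pooled signal was 37.4 (rank 133). This was 4.01 ± 0.43-fold, and among the first 351 regions of both replicates. The summits of both replicates lay within 4 bp of the pooled summit, and an AGATAA, read as TTATCT in the sequence above, was 13 bp away. The peak is also in the window of lpr-6, the next gene of the lipocalin cluster, 2855 bp upstream of its start. The other 2 regions of lpr-3 had ranks 8433 and 27669. lpr-1 (WBGene00002393, chromosome I from 557375 to 561671, plus strand), whose product is needed to keep the duct and pore connected, had 3 regions between ranks 12900 and 28891. Of these, 2 lay within the neighbour ptr-21, a patched-related gene, and overlapped its coding exons. lpr-1 was the lowest of the 10 by its strongest region, at a pooled signal of 8.18 against a median of 7.81 over all regions.

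dex-1 (WBGene00017028, chromosome III from 5526104 to 5535507, plus strand) encodes a nidogen-domain protein that anchors sensory dendrites and shapes the seam. All 5 of its regions lay inside the gene and none upstream. The strongest, 3673 bp from the gene start in an intron, had a pooled signal of 11.1 at rank 4163. Replicate 2 had it at rank 14242 and replicate 1 held no summit within 100 bp. No region of dex-1 was matched in both replicates, and 0 of the 5 held a GATA site within 50 bp of the summit.

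**Figure D2:**
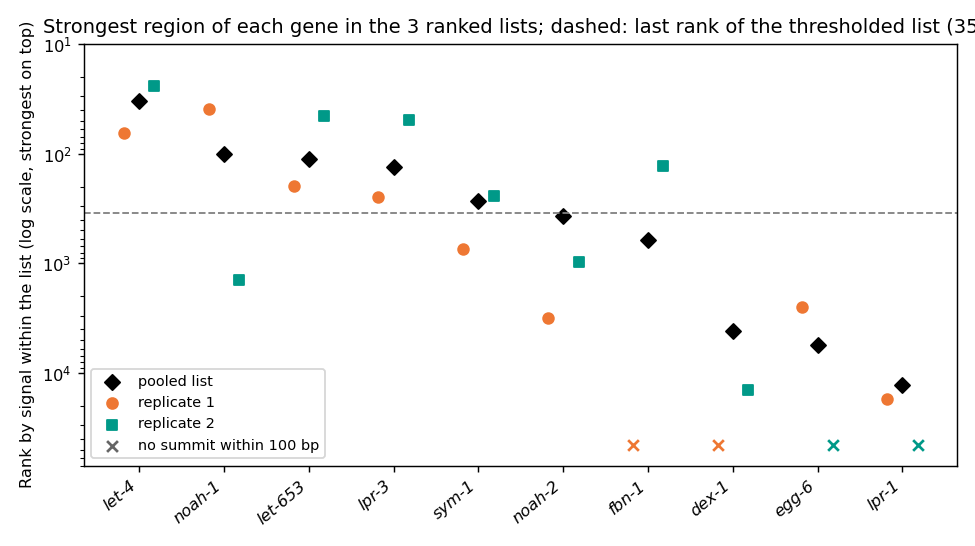
Rank of the strongest pooled region of each gene in the pooled list and in each replicate's list, on a log axis with the strongest on top; crosses mark lists with no summit within 100 bp, and the dashed line is the limit at rank 351. let-4, let-653 and lpr-3 stand above the line in all 3 lists, noah-1 in the pooled list and replicate 1, sym-1 in the pooled list and replicate 2, and fbn-1 in replicate 2 alone. Over all peaks, 48.1% were above this limit in both replicates, so standing there does not set a peak apart.

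By the strongest region in the window, the 10 genes split into 7 with rank 612 or better and 3 with rank 4163 or worse. Between those, no gene fell among ranks 1001 to 3000, which held 13.2% of the 16060 genes with any ranked region. The median of the best ranks was 321.5 for the 10 genes and 8995 over those 16060 genes. Among the 5551 genes with 3 to 12 ranked regions, the range of the 10, it was 5091. Of the 10 genes, 7 had a region of rank 1000 or better, against 5.26% of all genes.

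**Figure D3:**
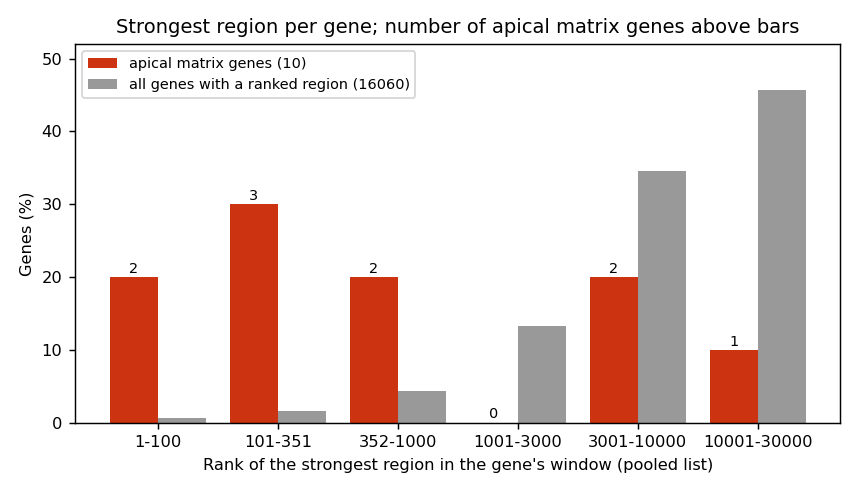
Share of genes, in percent, by the rank of the strongest region in their window, for the 10 apical matrix genes (red) and the 16060 genes with a ranked region (grey). The numbers above the red bars count apical matrix genes: 7 lie at ranks up to 1000, 0 at 1001 to 3000, and 3 beyond.

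Of the 50 regions, 15 lay upstream of the gene, and 4 of these were peaks. Over all protein-coding genes, counting a region once for each gene whose window holds it, 1.39% of upstream regions were peaks. Coding exons and introns of the same gene held 32 of the 50 regions, of which 0 were peaks, against 0.598% over all genes, so a count of 0 is no departure from that share. The remaining peak was that in the 5′ UTR of sym-1. The 3 regions with the next best ranks, at noah-2, let-653 and fbn-1, were upstream as well. In C. elegans many transcripts receive a spliced leader at their 5′ end, so an annotated start may lie downstream of where transcription begins. GC content was a median of 44.3% in the 5 peaks, 40.5% in all 351 peaks and 37.1% in all ranked regions.

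Every one of the 5 peaks had a summit within 100 bp in both replicates, as did 94.6% of all 351 peaks. The let-4, let-653 and lpr-3 peaks were also among the first 351 regions of both replicates, as were 48.1% of all 351 peaks. Of the 45 other regions, 6 were matched in both replicates, 28 in 1 and 11 in neither, and the same classes held 12.4%, 64.1% and 23.5% of all regions outside the thresholded list. Presence in all lists was thus about as frequent for these regions as for regions elsewhere. By order of the folds the 5 peaks differed from each other. let-653, lpr-3 and sym-1 had the higher fold in replicate 2, as did 59 of the 332 peaks matched in both, and let-4 and noah-1 had the higher fold in replicate 1. Over the 332 matched peaks the SD was a median of 32.9% of the mean of both folds. The let-653, lpr-3, let-4 and sym-1 peaks stayed below that share and the noah-1 peak lay above it. The median fold of the matched peaks was 4.27 in replicate 1 and 2.82 in replicate 2. Each SD therefore includes a difference of scale between the lists, and a low SD alone does not measure agreement.

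**Figure D4:**
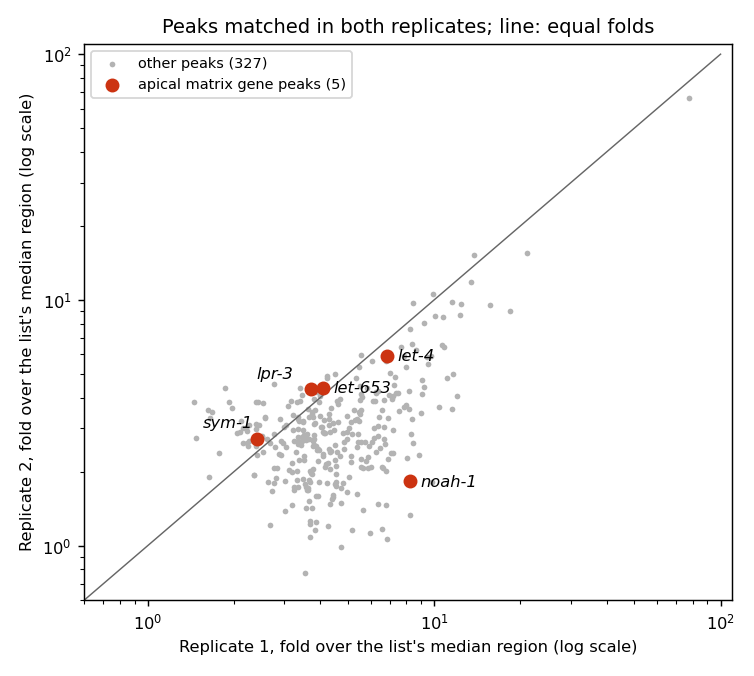
Fold over the median region in replicate 1 (horizontal) and replicate 2 (vertical), both on log axes, for the 332 peaks matched in both replicates; the line marks equal folds. The peaks at let-4, let-653, lpr-3 and sym-1 lie near the line, and that at noah-1 lies far below it, at 8.21 in replicate 1 and 1.83 in replicate 2. The median fold of the 332 peaks was 4.27 in replicate 1 and 2.82 in replicate 2, so the line is not where a typical peak lies.

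GATA sites lay within 50 bp of the pooled summit in 3 of the 5 peaks, those of noah-1, lpr-3 and let-4, against 53.8% of all 351 peaks. The count was 4 with the summits of replicate 1, which add let-653, and 3 with those of replicate 2. Anywhere in the region, 4 of the 5 held a site, against 69.2% of all peaks and 45.6% of all ranked regions. Among the 45 other regions of the 10 genes, 8 had a site within 50 bp of the summit, where regions outside the thresholded list had 20.5%. Both shares of the 10 genes are near those backgrounds. A match to these letters is a description of the sequence, not evidence of contact. Within 250 bp before to 50 bp after the annotated start, 5 of the 10 genes had a site, against 54.6% of all genes. These were sym-1, lpr-3, let-653, lpr-1 and fbn-1, of which the last had 3 sites.

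**Figure D5:**
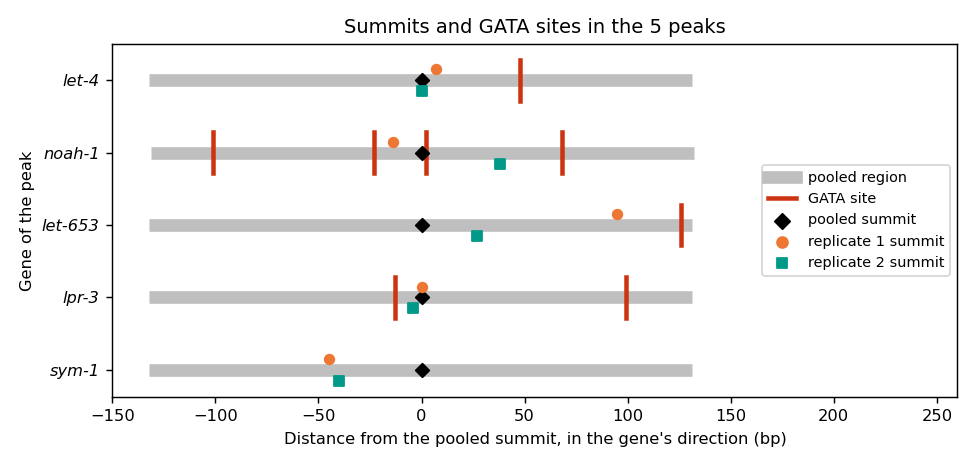
Layout of the 5 peaks. The horizontal axis is the distance in bp from the pooled summit, in the direction of the gene. Grey bars are the pooled regions, red ticks are GATA sites, and symbols are the summits of the pooled list and of each replicate. The replicate summits at lpr-3 stay within 4 bp of the pooled summit, while that of replicate 1 at let-653 lies 95 bp away.

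In the 10 kb on each side of the peaks at noah-1, let-653 and lpr-3 no other peak was found, as for 65.5% of all 351 peaks. The let-4 and sym-1 peaks had each other as the only other peak. The noah-1 peak stood 3.07-fold over the next strongest region nearby, the lpr-3 peak 2.70-fold, the let-4 peak 2.33-fold over that of sym-1, and the let-653 peak 2.04-fold. The median over all peaks was 2.04-fold, with quartiles of 1.20 and 2.81.

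The other genes of the same families were counted in the same windows, where 1.74% of all genes had a peak. Of 35 other ZP-domain genes (dyf-7, cuticlins and cuticlin-like genes) only cutl-27 had a peak, and that is the let-653 peak. Of 20 other leucine-rich repeat genes (the lron and iglr genes, dma-1 and pan-1) 0 had a peak, and of 5 other lipocalin-related genes only lpr-6, through the lpr-3 peak. The cutl-27 peak has its summit in a coding exon of that gene. Both peaks thus lie also in the window of a gene of the 10, and which gene either acts on was not tested. At 1.74% of all genes, counts this low do not set the 60 genes apart from the rest. The medians of the best ranks, list by list, were 8992, 6822 and 2487.

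Genes for molting and matrix remodelling had peaks at 6 of 19, against 1.74% of all genes. By region, 7 of 110 were peaks, against 1.17% of all ranked regions. The strongest lay in an intron of nhr-25 (rank 85), a nuclear receptor gene of the epidermis and molting, followed by lin-42 with 2 intronic peaks (ranks 201 and 212), a period-related gene that times the molts. Behind them came myrf-1 (rank 252, 167 bp upstream, with no summit in replicate 2 within 100 bp), a transcription factor gene, and acn-1 (rank 267), a gene for a protein related to angiotensin-converting enzyme that is needed for molting. The other 2 were dab-1 and nhr-23, at ranks 255 and 278 in replicate 1 but 11833 and 4631 in replicate 2. The lin-42 peak of rank 201 had rank 1560 in replicate 1 and 79 in replicate 2, and the acn-1 peak had ranks 755 and 172. Among the same 19, the mlt and nas genes, lrp-1, nekl-2, nekl-3, qua-1 and bli-5 had no peak. Of 6 genes for attachment of the cuticle, only vab-10, a spectraplakin gene, had a peak (rank 158, intronic), against the same 1.74%. The vab-10 peak had rank 379 in replicate 1 and 109 in replicate 2. These 6 genes held many ranked regions. By region the count was 1 of 55, near the 1.17% of all ranked regions.

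Short gene lists stood for the cell types in a whole larva. Of 7 genes listed for the epidermis, 3 had a peak in their window, against 1.74% of all genes: nhr-25, the collagen gene dpy-7 and the junction gene dlg-1. By region this was 3 of 38, against 1.17% of all ranked regions. The nhr-25 peak is the one already counted for molting, and the dpy-7 peak had rank 66 in replicate 1 but 3971 in replicate 2. The dlg-1 peak had rank 730 in replicate 1 and 237 in replicate 2. The other genes listed for the epidermis, lin-26, elt-3, rol-6 and ajm-1, had no peak. Whether the listed genes mark the epidermis alone was not tested. The counts were 0 of 7 for intestine, 0 of 5 for body wall muscle, 0 of 5 for neurons, 0 of 4 for pharynx and 0 of 4 for germline. At 1.74% of all genes, a count of 0 in lists this short does not set them apart from other genes. These lists count binding and not expression, so they do not measure how many cells of each type were present.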

How the data were processed

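Per the file listing deposited with the samples, the authors ranked regions from each replicate's alignments and from the pooled alignments, each with a control, and thresholded them by the irreproducible discovery rate (IDR), which asks how well regions keep their rank between replicates. The values used are the signal per region as deposited by the authors (column 7), on ce11. Which aligner, caller, control strain and threshold they used is not given in the sources used here. The ce10 lists were not used, as no annotation of that build was at hand. All 351 thresholded regions were ranks 1 to 351 of the pooled list. Being a peak does not by itself show that the replicates agreed at that region. Of the 351 peaks, 19 (5.41%) had a summit within 100 bp in only 1 replicate. No region ended beyond a chromosome of the WBcel235 reference, the same assembly as ce11, and genes came from Ensembl release 115.

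Summits are column 2 plus column 10, written 1-based. A replicate's value is that of its nearest summit within 100 bp. Lists hold 30000 regions each, so an unmatched region may lie below the last rank. Counts of genes or regions were read against the share over all genes, peaks or regions, and no test was run, as there is 1 group of 2 replicates. The replicates are separate biosamples of 1 strain. Members, gene lists and alternatives were chosen with earlier results of these data known. Named genes are the 10, the genes at their peaks, and listed genes with a peak, up to 4 a list by rank. To complete the counts, dab-1, nhr-23 and the molting and epidermal genes without a peak were added. Gene look-up and site search were tested on simulated data. Python 3.11.15 and pandas 2.3.3 were used.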

Additional observations from a re-analysis of the deposited data

How the results depend on the processing

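The 5 genes with a peak became 3 genes with 3 peaks (noah-1, lpr-3 and sym-1) when the window was a promoter from 1000 bp upstream to 200 bp downstream of a transcript start, or began 1 kb upstream of the gene. The let-4 and let-653 peaks lie outside both. The share of all genes was 0.806% and 1.19% under these windows, 2.23% with 5 kb upstream, 1.37% by nearest transcript start and 0.871% with the upper 176 peaks, where sym-1 had none. With the first 351 regions of a single replicate in place of the peaks, between 4 and 5 genes, between 4 and 6 regions, and between 1.77% and 1.94% of all genes were counted. Without replicate 1, noah-1 dropped out and fbn-1 came in, and without replicate 2, sym-1 dropped out. Of the 5 peaks, between 2 and 4 had a site over the distances from the summit and motif forms tried. With the first 351 regions of a single replicate, 2 of 6 had a GATA site without replicate 1 and 4 of 4 without replicate 2. The shares over all regions of a single replicate are not given here, so these counts have no background beside them. A 50 bp limit for a match left 4 of the 5 peaks matched in both replicates, since the let-653 summit moved by 95 bp. In the pooled list the folds were 3.51 to 8.20, higher than the replicates' means at all 5 peaks. No paired analysis was possible because there is only 1 group. Read depth is unknown, and 2 replicates limit every SD.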
